A study of Caenorhabditis elegans with 2 samples.

Results

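The proteasome and CDC-48 genes of Caenorhabditis elegans were examined in peak lists of eGFP-tagged NHR-28, a nuclear hormone receptor. Members were the protein-coding genes whose annotated name starts with rpn-, rpt-, pas- or pbs- and a number, together with cdc-48.1, cdc-48.2 and ufd-1, which gave 36 of 19973 protein-coding genes. They comprised 7 pas genes, 7 pbs genes, 6 rpt genes, 13 rpn genes and the 3 others. Chromatin immunoprecipitation sequencing had been done on whole L3 larvae of both sexes, in 1 group of 2 biological replicates from separate biosamples. Both replicates were of strain OP317, which carries the mutation unc-119(ed3) and the transgene wgIs317, the source of the tagged receptor. The promoter that drives the transgene is not given in the sources used here, and tissues cannot be told apart in whole larvae.

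The 26S proteasome degrades proteins that carry ubiquitin. Its 20S core is a stack of rings of alpha subunits (pas genes) and beta subunits (pbs genes), the latter holding the proteolytic sites, and its 19S cap holds a ring of ATPases (rpt genes) and non-ATPase subunits (rpn genes) that bind, deubiquitinate and unfold substrates. CDC-48, called p97 or VCP in mammals, is an AAA ATPase that pulls ubiquitinated proteins out of complexes and membranes, and UFD-1 is one of its cofactors. In worms the transcription factor SKN-1 raises proteasome gene expression when the proteasome is impaired.

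A region was assigned to a gene if its summit, the middle of the region in every list, lay from 1000 bp upstream to 500 bp downstream of an annotated transcription start site (TSS) of the gene, and this stretch is called the promoter window. The final list, kept by the authors on reproducibility between replicates, held 162 regions. The candidate lists, which include background by construction, held 20876 regions for the pooled reads and 30000 for each replicate. Signals are the authors' values for each region, on a scale that is not stated, so strength is compared by rank within 1 list, with rank 1 the strongest. No second condition was present, read depth was unknown, and whether any region depends on NHR-28 was not tested. The counts below are therefore descriptions without a test, set beside the share of all protein-coding genes.

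The members with the strongest regions were cdc-48.1, rpn-3 and pbs-1. The 300 bases around the pooled summit of each are shown because these are the stretches at which the signal was centred in both replicates. Each is printed 5′ to 3′ along the strand of the named gene, from the RefSeq sequence of build ce11 (WBcel235). They lie at chrII:10563428-10563727 (minus strand), chrIII:8447027-8447326 (plus strand) and chrIV:1709764-1710063 (minus strand). Capitals mark matches to 2 of the 6 motifs searched. ATGACAA is the reverse complement of the SKN-1 site TTGTCAT, and GAAGTTTC at cdc-48.1 as well as GAATATTC at rpn-3 are matches to the heat shock element, spelled GAANNTTC.

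cdc-48.1: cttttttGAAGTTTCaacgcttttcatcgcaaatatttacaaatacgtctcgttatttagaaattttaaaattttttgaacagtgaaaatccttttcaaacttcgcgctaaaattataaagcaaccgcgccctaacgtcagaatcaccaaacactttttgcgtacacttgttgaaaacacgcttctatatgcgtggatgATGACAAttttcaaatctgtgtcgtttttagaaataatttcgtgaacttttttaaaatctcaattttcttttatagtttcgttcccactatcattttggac

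rpn-3: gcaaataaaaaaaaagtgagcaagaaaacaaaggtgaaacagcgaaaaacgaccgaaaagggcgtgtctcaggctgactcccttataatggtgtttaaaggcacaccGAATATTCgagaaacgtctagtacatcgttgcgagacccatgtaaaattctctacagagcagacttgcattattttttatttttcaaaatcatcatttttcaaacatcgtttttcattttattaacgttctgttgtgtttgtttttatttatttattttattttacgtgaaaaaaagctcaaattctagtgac

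pbs-1: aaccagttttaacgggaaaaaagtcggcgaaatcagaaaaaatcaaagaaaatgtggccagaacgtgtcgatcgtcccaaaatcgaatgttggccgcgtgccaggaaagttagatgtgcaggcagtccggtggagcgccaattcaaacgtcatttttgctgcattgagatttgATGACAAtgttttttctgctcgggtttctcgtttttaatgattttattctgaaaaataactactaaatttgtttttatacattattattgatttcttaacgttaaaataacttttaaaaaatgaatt

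The promoter of cdc-48.1 (WBGene00007352), one of a pair of CDC-48 genes in worms, held the strongest region of all members. Its pooled region (chromosome II, 10563408 to 10563747) had a signal of 114 and rank 8. The q value of this region, 0.00592, is the smallest of that list, and the pooled region of rpn-3 has the same value. In replicate 1 the overlapping region had a signal of 45.5 and rank 19, and in replicate 2 a signal of 65.6 and rank 12. The summit lay 171 bp upstream of the TSS in the pooled list and in replicate 1, and 151 bp upstream in replicate 2, in sequence between genes. No other protein-coding gene had this summit in its promoter window. The snoRNA gene C06A1.9 lies downstream of the TSS of cdc-48.1 (chromosome II, 10562952 to 10563064) and did not overlap the region of any list. Its near edge was 494 bp from the replicate 2 summit.

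The second member in the final list was rpn-3 (WBGene00004460), which encodes a non-ATPase subunit of the 19S cap. The pooled region at chromosome III, 8447007 to 8447346, ranked 85 with a signal of 39.7. The overlapping regions had a signal of 17.0 and rank 96 in replicate 1, and a signal of 22.2 and rank 187 in replicate 2. The summits lay 176 bp upstream of the rpn-3 TSS in the pooled list, 198 bp in replicate 1 and 175 bp in replicate 2. This is a divergent promoter: the starts of rpn-3 and hsp-110, a gene for a large chaperone of the Hsp70 superfamily, are 444 bp apart, and the pooled summit lay 268 bp upstream of hsp-110. The annotated non-coding RNA gene C30C11.14 (chromosome III, 8447043 to 8447095) lies between them and overlapped the region in the pooled list and in both replicates. Which of these genes the signal relates to was not tested.

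The beta subunit gene pbs-1 (WBGene00003947) had a region in every candidate list and none in the final list. The pooled region at chromosome IV, 1709744 to 1710083, ranked 216 with a signal of 30.2, below the weakest final region at 32.8. Its pooled q value of 0.0116 was nevertheless smaller than the largest q value in the final list, 0.0175. The signal and rank were 12.6 and 381 in replicate 1, and 17.6 and 611 in replicate 2. Upstream of the TSS, the summits lay at 169 bp in the pooled list and in replicate 2, and 160 bp in replicate 1. This promoter is also divergent, with K08D12.3 starting 520 bp away and the pooled summit 351 bp upstream of it.

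The summits of these 3 genes thus lay between 169 and 176 bp upstream of the TSS in the pooled list, and between 151 and 198 bp upstream in the replicates. Between replicates the summits differed by 20 bp at cdc-48.1, 23 bp at rpn-3 and 9 bp at pbs-1. Over all 119 genes with a final region, 56.3% had the strongest summit within 300 bp upstream and the median position was 238 bp upstream.

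**Figure D1:**
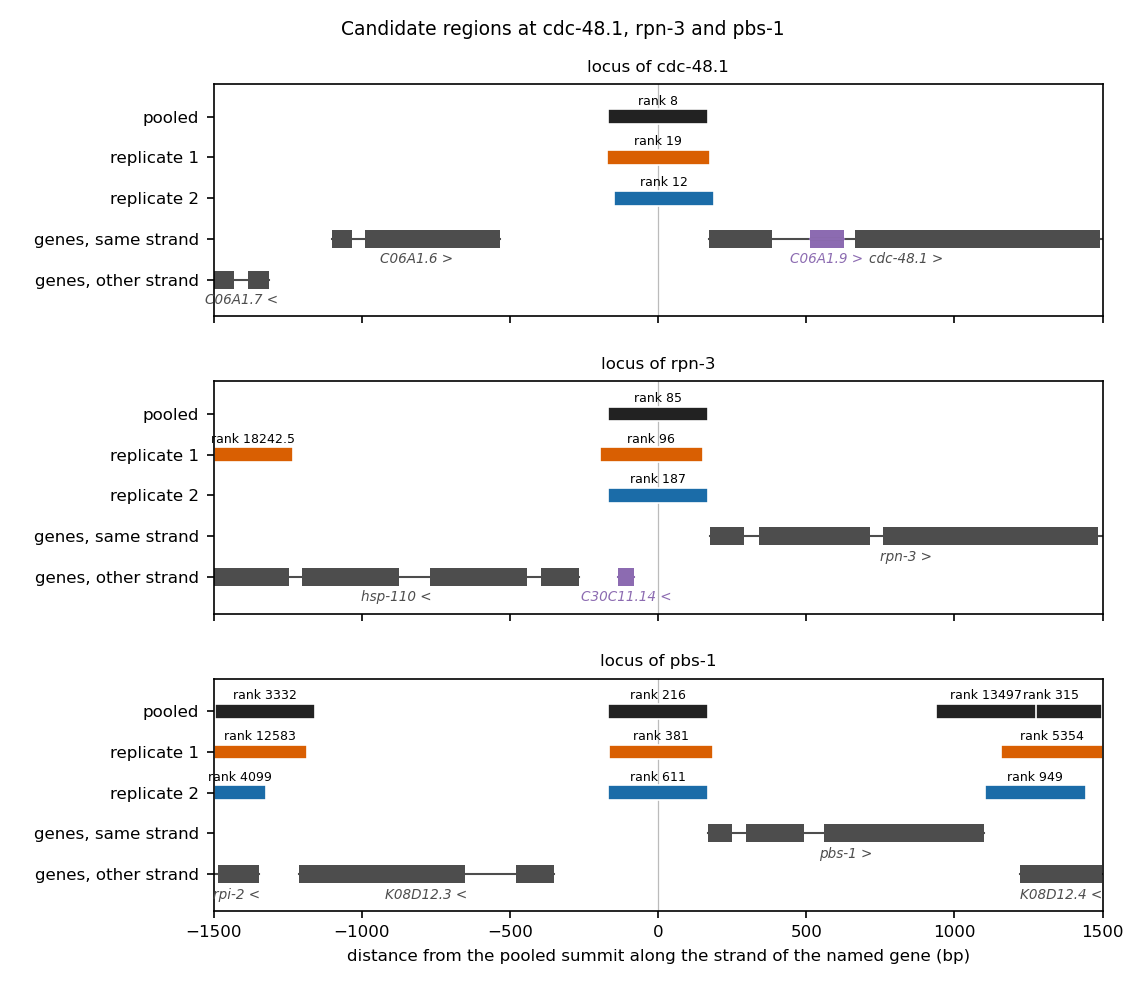
Regions of the pooled, replicate 1 and replicate 2 lists (bars, with the rank in the list) and annotated genes (boxes are exons, dark for protein-coding and purple for non-coding genes, arrowheads in the labels give the direction) around cdc-48.1, rpn-3 and pbs-1, against the distance in bp from the pooled summit along the strand of the named gene. In each panel the 3 lists have a region over the same stretch just upstream of the named gene, with ranks 8, 19 and 12 at cdc-48.1, 85, 96 and 187 at rpn-3, and 216, 381 and 611 at pbs-1.

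In the final list 2 of the 36 members had a region (5.56%), against 0.596% of all protein-coding genes. The count rests on few genes. When as many of the strongest regions were taken from replicate 2 alone, it was 1 (cdc-48.1), since rpn-3 ranked 187 there, and from replicate 1 alone it was 3 (cdc-48.1, rpn-3 and pas-5). Among the 162 strongest regions of each replicate as deposited, mitochondrial ones included, the counts were 3 in replicate 1 (8.33%, against 0.511% of all genes) and 1 in replicate 2 (2.78%, against 0.591%). Among the 1000 strongest regions 3 members had one in the pooled list (8.33%, against 2.69%), 4 in replicate 1 (11.1%, against 2.53%) and 3 in replicate 2 (8.33%, against 2.57%). The genes cdc-48.1, rpn-3 and pbs-1 were in all of these 1000-region sets, and the fourth gene in replicate 1 was pas-5.

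Further down the lists the members came closer to all genes or fell below them, except at one depth of replicate 1. Among the 5000 strongest regions 4 members had one in the pooled list (11.1%, against 10.6%) and 4 in replicate 2 (11.1%, against 10.1%), while replicate 1 had 8 (22.2%, against 10.2%). In the whole pooled list 8 members had a region (22.2%), against 34.2% of all protein-coding genes. In the whole replicate lists 16 did in replicate 1 (44.4%, against 45.1%) and 13 in replicate 2 (36.1%, against 44.9%). The order of members and all genes in the pooled list depended on the window: with 2000 bp upstream, 18 of the 36 members had a region, against 46.6% of all genes. The same held in replicate 2, with 26 members (72.2%, against 59.5%), and by a small margin in replicate 1, with 22 (61.1%, against 59.3%). In the narrower window of 500 bp upstream to 200 bp downstream, 7 members had a pooled region (19.4%, against 20.2%), a share near that of all genes. Replicate 1 had 11 there (30.6%, against 26.9%) and replicate 2 had 9 (25.0%, against 27.1%). The median rank of the strongest region did not keep one order either. It was 7723.5 over the 8 members of the pooled list and 9007 over the 6838 genes with a region, 8004.5 against 12430 in replicate 1, and 16662 against 12590 in replicate 2. In the pooled list with the window from 500 bp upstream to 200 bp downstream it was 12346 against 8886. When as many of the strongest regions were taken from 1 replicate in place of the pooled list, it was 3945 in replicate 1 (against 9014) and 5096 in replicate 2 (against 9244.5).

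**Figure D2:**
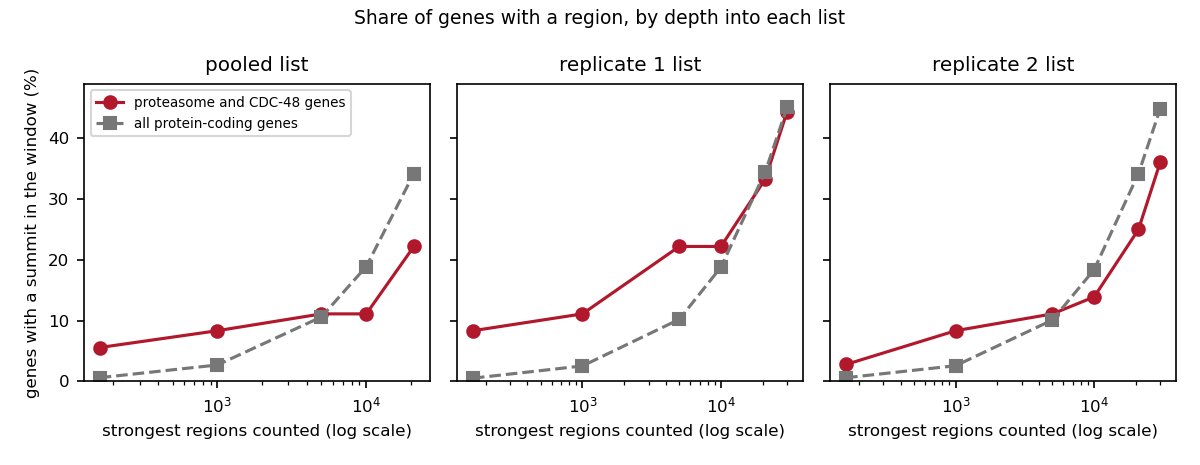
Percentage of the 36 proteasome and CDC-48 genes (red circles) and of all 19973 protein-coding genes (grey squares) with a summit in the promoter window, against the number of strongest regions counted (log scale), in the pooled and both replicate lists. The members lie above all genes at 162 and 1000 regions in each list, and at the end of the pooled list they lie below, at 22.2% against 34.2%.

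More members had a region in 1 replicate only than in both, and the same order held over all genes. A region was present in both replicate lists at 6 members (16.7%, against 24.5% of all genes), in 1 replicate list only at 17 (47.2%, against 41.0%), and in at least 1 of the 3 candidate lists at 24 (66.7%, against 66.5%). All 3 lists had a region at 4 members (11.1%, against 18.9%), namely cdc-48.1, rpn-3, pbs-1 and pas-3. Of the 6 members with a region in both replicates, the regions overlapped each other at 5, and the exception was rpt-4. Among the 4892 genes with a region in both replicates, overlapping regions were found at 63.5%. The overlap at rpn-2 was 43 bp with summits 302 bp apart, and at pas-3 it was 153 bp with summits 192 bp apart, against at most 23 bp between summits at the 3 strongest members. At pas-3 the overlapping region of replicate 1 was the weaker of 2 there, of rank 24413.

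**Figure D3:**
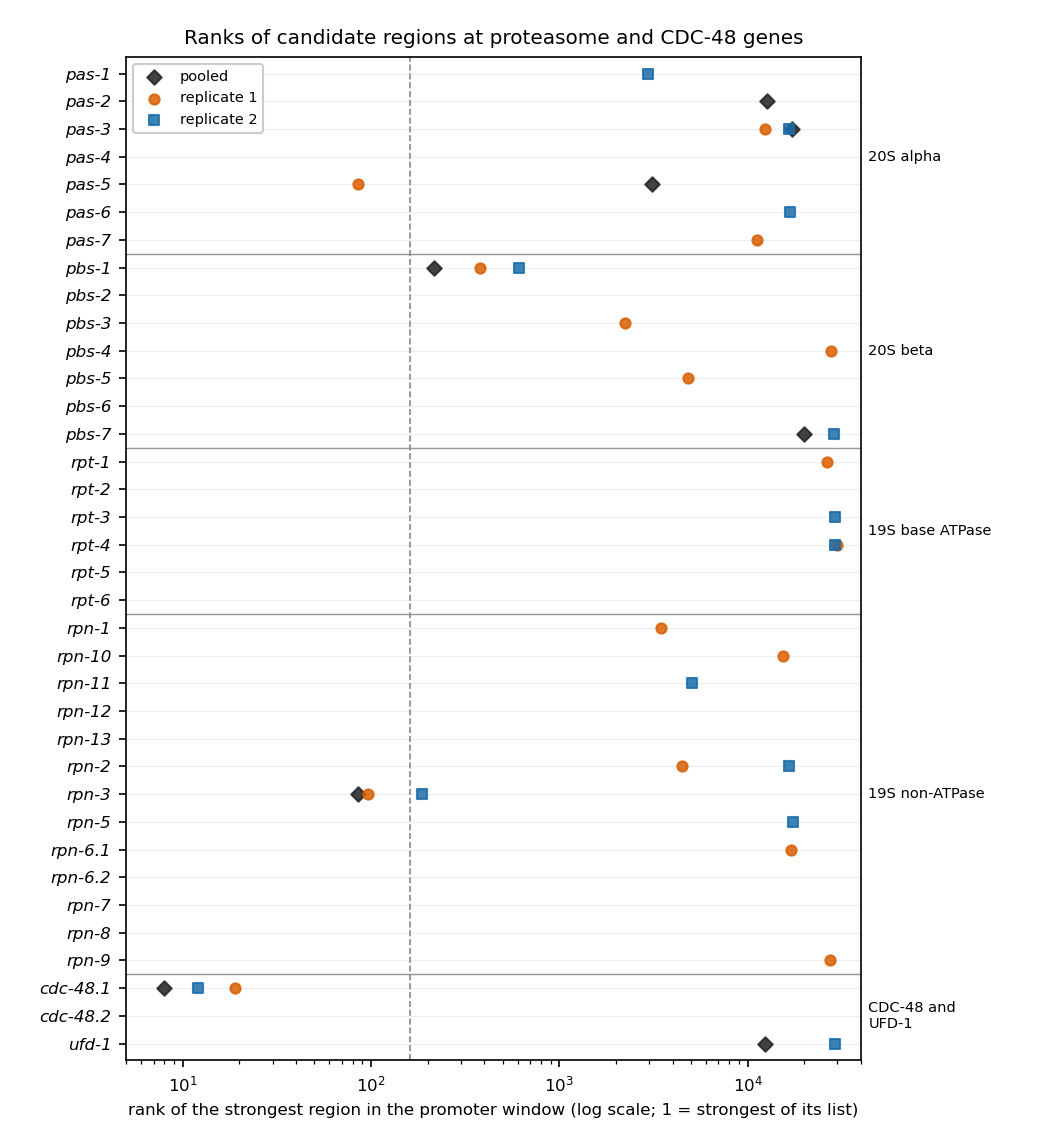
Rank of the strongest region in the promoter window of each of the 36 genes (log scale, 1 is the strongest) in the pooled list (black diamonds), replicate 1 (orange circles) and replicate 2 (blue squares), with genes grouped by role and a dashed line at rank 162. Symbols left of the line are those of cdc-48.1, of rpn-3 in the pooled list and replicate 1, and of pas-5 in replicate 1, and 12 genes have no symbol.

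The alpha ring subunits, which form the gate of the 20S core, had weak or unshared regions. A region was present at 6 of the 7 pas genes in at least 1 candidate list (against 66.5% of all genes). Each candidate list had one at 3 of them, against 34.2%, 45.1% and 44.9% in the pooled, replicate 1 and replicate 2 lists. The final list had one at 0, against 0.596% of all genes. The counts in this and the other subgroups are of few genes. The best ranked was pas-5, whose replicate 1 region (chromosome I, 10565523 to 10565872) ranked 85 with a signal of 17.9, with the summit 652 bp upstream of the TSS. Its pooled regions ranked far lower, with a signal of 17.3, rank 3101 and the summit 788 bp upstream (10565392 to 10565731), and a signal of 12.7, rank 11357 and the summit 582 bp upstream (10565598 to 10565937). In replicate 2 no summit lay in the window, although a region of rank 5406 overlapped the first pooled region, with its summit at 1081 bp upstream. The replicates thus differ here more than at any of the 3 strongest members. The snoRNA gene F25H2.15 (chromosome I, 10565266 to 10565443) overlapped the first pooled region and lay 119 bp from its summit. In replicate 1, 21.0% of the 162 strongest nuclear regions had no overlapping region in replicate 2, so strong regions of 1 replicate were not confined to this gene.

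The remaining pas regions were of low rank and mostly nearer to another gene. At pas-3 the signal and rank were 11.2 and 17221 in the pooled list, 5.73 and 12426 in replicate 1, and 8.35 and 16662 in replicate 2. The starts of pas-3 and use-1 are 156 bp apart in opposite directions. The pooled and replicate 2 summits lay 127 and 142 bp inside use-1, in a coding exon, while the stronger replicate 1 summit lay 137 bp inside pas-3. That stronger region overlapped no region of the pooled or replicate 2 list. The weaker replicate 1 region (signal 4.26, rank 24413), with its summit 106 bp upstream of pas-3, overlapped the regions of both. At pas-2 the pooled list alone had a region (signal 12.4, rank 12636), whose summit lay 402 bp upstream of pas-2 and in the 5′ UTR of the divergent gene D1054.1. At pas-1 and pas-6 replicate 2 alone had a region, with ranks 2953 and 16878, at 969 and 965 bp upstream. The first lay nearer to rpoa-12 and the second in an intron of CD4.11. At pas-7 replicate 1 alone had a region, of rank 11172, in a coding exon of puf-12.

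Among the beta subunits, pbs-1 was the single gene with regions of rank 1000 or better. A region was present at 5 of the 7 pbs genes in at least 1 list (71.4%, against 66.5% of all genes). There were 2 in the pooled list (against 34.2% of all genes), 4 in replicate 1 (against 45.1%) and 2 in replicate 2 (against 44.9%). The catalytic subunits are those of pbs-1, described above, pbs-2 and pbs-5. Of the latter genes, pbs-5 had a region in replicate 1 alone (signal 7.59, rank 4837), 153 bp downstream of the TSS in its own coding exon, and pbs-2 had none in any list. At pbs-3 replicate 1 alone had a region (signal 9.01, rank 2241), 280 bp upstream of the TSS and in the 3′ UTR of ulp-2, which ends 22 bp before pbs-3 on the same strand. At pbs-4 replicate 1 alone had a region, of rank 27769, in an intron of pbs-4. At pbs-7 the pooled list had a region of rank 19875 (signal 10.6) and replicate 2 one of rank 28853 (signal 6.57), with summits 164 and 66 bp upstream of the TSS in a promoter shared with F39H11.1.

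The 19S base ATPase genes had no region in the pooled list (against 34.2% of all genes) or the final list (against 0.596%). Each replicate list had a region at 2 of the 6 (33.3%, against 45.1% in replicate 1 and 44.9% in replicate 2). These replicate regions had ranks from 26456 to 29816 of 30000. A region in at least 1 list was present at 3 of the 6 rpt genes, against 66.5% of all genes. These were rpt-1 (replicate 1, 123 bp upstream), rpt-3 (replicate 2, 909 bp upstream, in the 3′ UTR of chtb-2) and rpt-4. At rpt-4 the replicate 1 summit lay 647 bp upstream of one of 2 annotated starts, but inside the gene record. It was in a coding exon of nfyc-1 and in an intron of rpt-4. The replicate 2 summit lay 480 bp downstream of a start. Such ranks are at the weak end of the lists, where q values reach 0.857 in replicate 1 and 0.93 in replicate 2.

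Of the 13 non-ATPase subunit genes, rpn-3 was the single one with a region in the pooled list, against 34.2% of all genes, and 6 had a region in replicate 1 (against 45.1%) and 4 in replicate 2 (against 44.9%). Replicate 1 alone had regions at rpn-1, a scaffold of the 19S base (signal 8.23, rank 3452), at the ubiquitin receptor gene rpn-10 (best rank 15466), and at the lid subunit genes rpn-6.1 (rank 16976) and rpn-9 (rank 27351). Replicate 2 alone had regions at rpn-11, which encodes the deubiquitinase of the lid (signal 11.8, rank 5096, 97 bp upstream), and at rpn-5 (rank 17431, 7 bp upstream). At rpn-2, a further scaffold of the base, replicate 1 had a region of rank 4468 at 701 bp upstream, which is 69 bp upstream of the divergent gene C23G10.7. Replicate 2 had one of rank 16618 at 399 bp upstream. The rpn-1 summit was likewise nearer to the divergent gene ribo-1, at 242 bp, than to rpn-1, at 528 bp.

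The paralogous gene cdc-48.2 had no region in any list, and ufd-1 had weak ones. The pooled summit nearest to cdc-48.2 lay 3804 bp upstream, the one in replicate 1 lay 2995 bp downstream, and the one in replicate 2 lay 3004 bp upstream. At ufd-1 the pooled region (chromosome IV, 12330550 to 12330889) ranked 12346 with a signal of 12.4, and the replicate 2 region a signal of 6.55 and rank 29027. Their summits lay 55 and 37 bp downstream of the TSS in a coding exon, and replicate 1 had no summit in the window. The upstream gene F19B6.1 ends 85 bp before ufd-1 on the same strand. In the pooled list cdc-48.1 and cdc-48.2 thus differed by presence of a region of rank 8 against none.

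No region was found in any list at 12 members. The other 24 (66.7%) had one in at least 1 candidate list, against 66.5% of all genes, so the share without one was near that of all genes. Those without one were pas-4, pbs-2, pbs-6, rpt-2, rpt-5, rpt-6, rpn-6.2, rpn-7, rpn-8, rpn-12, rpn-13 and cdc-48.2. Absence from a list means that no summit lay in the window among the regions listed, and at unknown depth it does not show absence of binding. Some strong pooled regions lay near members but outside their windows, a search made after the values were seen among the 1000 strongest regions within 3000 bp. The region of rank 51 lay 1370 bp downstream of the pbs-2 TSS and 115 bp upstream of the alpha-tubulin gene tba-2. The region of rank 53 lay 2977 bp upstream of rpn-8, nearer to egg-5 and within 500 bp of the spliced leader RNA gene sls-2.4. Another, of rank 315, lay 1158 bp downstream of the pbs-1 TSS in the 3′ UTR of K08D12.4. The others were at rank 423 near rpt-1 but nearer to snr-4, and at rank 648 in a coding exon of F10G7.5. The summit of the latter lay 2070 bp downstream of an rpn-5 TSS.

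**Figure D4:**
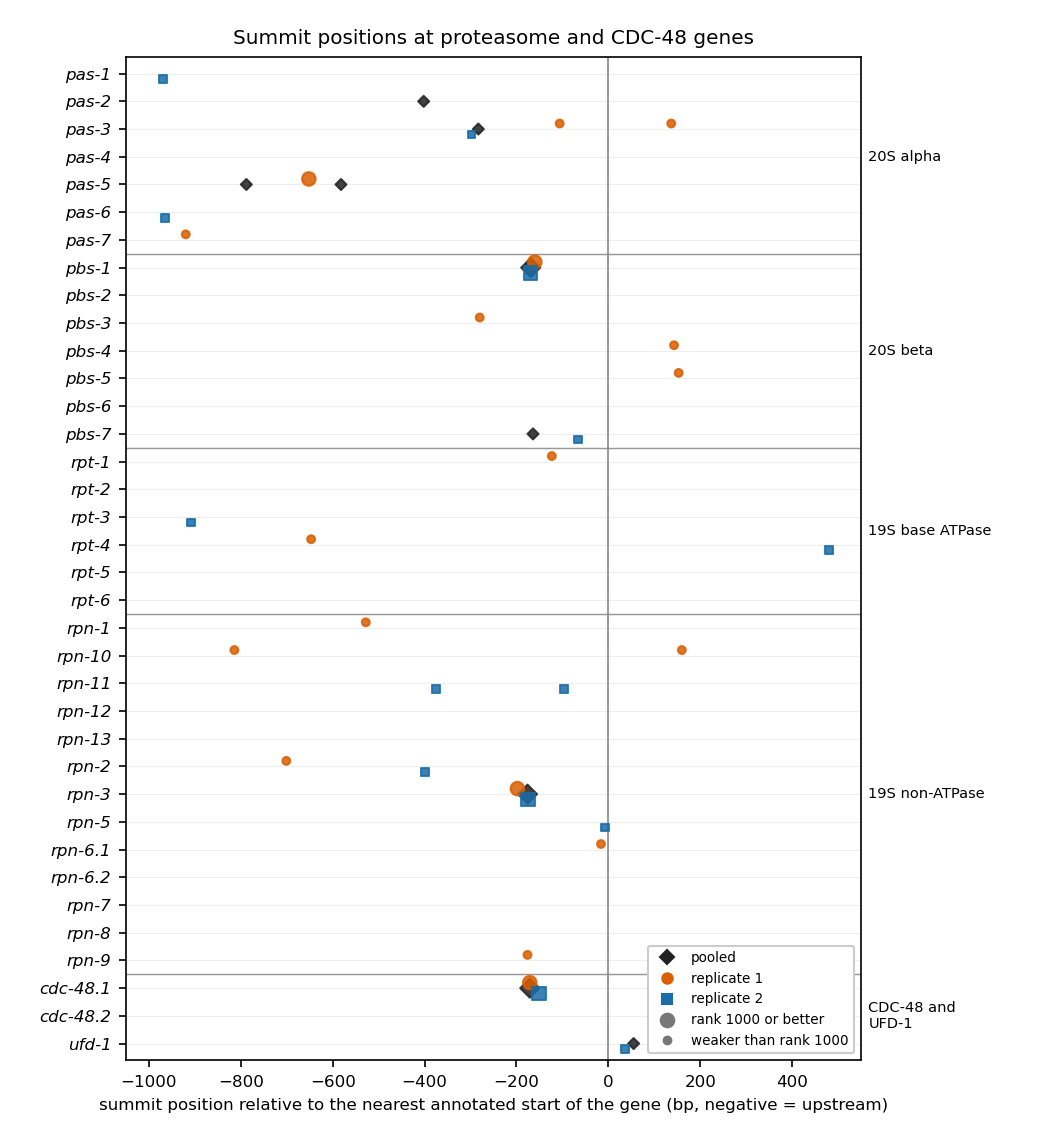
Position of every summit in the promoter window relative to the nearest annotated start of the gene (bp, negative is upstream) for the 36 genes, with colours and shapes by list and larger symbols for rank 1000 or better. The large symbols of cdc-48.1, rpn-3 and pbs-1 stand between 151 and 198 bp upstream, that of pas-5 at 652 bp upstream in replicate 1 alone, and the small symbols spread over the window.

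Divergent arrangement was frequent among the members. An opposite-strand gene started within 1000 bp upstream of 21 of the 36 members (58.3%), against 17.7% of all protein-coding genes, and the gaps between the starts ran from 89 bp (rpn-6.1 and F57B9.1) to 790 bp (pas-6 and CD4.11). Many summits were shared with an opposite-strand gene: at 5 of 8 members with a pooled region (62.5%, against 20.5% of all genes with one), at 10 of 16 in replicate 1 (62.5%, against 21.3%) and at 8 of 13 in replicate 2 (61.5%, against 20.2%). The strongest summit was nearest to the member itself at 5 of 8 members in the pooled list (against 88.2% of genes), at 11 of 16 in replicate 1 (against 87.8%) and at 9 of 13 in replicate 2 (against 88.1%). Assigned to the gene with the nearest TSS alone, the pooled count fell to 5 members (13.9%, against 30.6% of all genes), which were cdc-48.1, rpn-3, pbs-1, pas-5 and ufd-1.

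The counts of members with and without a divergent neighbour did not keep one order across the lists. In the pooled list 5 of the 21 members with such a neighbour had a region and 3 of the 15 without (all genes 34.4% and 34.2%). In replicate 1 the counts were 8 of 21 and 8 of 15 (all genes 46.0% and 44.9%), in replicate 2 they were 7 of 21 and 6 of 15 (all genes 44.0% and 45.1%), and in at least 1 list 12 of 21 and 12 of 15 (all genes 66.3% and 66.6%). A same-strand gene ended within 500 bp upstream of 9 members (25.0%, against 20.9% of all genes), a spacing found in operons, where the annotated start may not be a promoter. Of these 9 members, ufd-1 alone had a pooled region (against 36.5% of all genes with this spacing), and 7 had one in at least 1 list (against 69.3%). Upstream summits made up 7 of 8 in the pooled list (87.5%, against 69.8% of genes). Within 300 bp upstream lay 5 of the 8 (62.5%, against 26.0%), of which those at pas-3 and pbs-7 were nearer to another gene. In the replicates this share was 43.8% in replicate 1 (against 24.7%) and 53.8% in replicate 2 (against 25.4%). Over all genes it was higher at strong regions, at 40.5% for the 1000 strongest pooled regions, where 3 of these members lie.

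Set beside all promoters, member promoters more often held the SKN-1 site, a share that was not tested. Promoters of 300 bp (250 bp before to 50 bp after the gene start) were searched on both strands for 6 motifs. The SKN-1 site was searched in its 4 forms, of which the first was ATATCAT, the next form was ATGTCAT, the one after it was TTATCAT and the last form was TTGTCAT. At least 1 form was present at 14 of 36 members (38.9%), against 24.1% of all promoters. Split after the values were seen, TTGTCAT was at 9 members (25.0%, against 7.01%), namely pas-2, pas-6, pbs-1, pbs-6, rpt-2, rpn-2, rpn-11, rpn-12 and cdc-48.1. Of the other forms, the first was at 3 members and the remaining ones at 1 each. Of these 9 promoters 3 had a pooled region (pas-2, pbs-1 and cdc-48.1), a share near the 34.2% of all genes. The site lay inside the region at pbs-1 and cdc-48.1. In the sequences printed above its centre was 53 bp downstream of the pooled summit at cdc-48.1 and 27 bp downstream at pbs-1, 118 and 142 bp upstream of the gene starts.

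The other motifs were at shares near those of all promoters. GATA sites (TGATAA) were at 10 members (27.8%, against 30.2%), heat shock elements (GAANNTTC) at 5 (13.9%, against 18.5%), the nuclear receptor half-site AGGTCA at 2 (5.56%, against 8.27%) and the forkhead site GTAAACA at 1 (2.78%, against 4.77%). CTGCGTCTC, a motif of strongly bound worm promoters, was at 0 members, against 2.93% of all promoters. In pooled regions, which are 340 bp long, it was in 0 of the 9 at members, against 1.93% of all. It was in 11.7% of the 162 strongest pooled regions, of which only 2 are at members. By their letters 2 motifs overlap: the TTATCAT form of the SKN-1 site holds TGATAA on its other strand, as at rpn-5, and no matches overlap in the printed sequences. In the 9 pooled regions at members, GAANNTTC was found in 5 (55.6%), against 23.6% of all pooled regions, including those of rpn-3 and cdc-48.1, but 2 of the 5 are the overlapping pair at pas-5. SKN-1 sites were in 2 of the 9, against 24.5%, and AGGTCA in 1, that of pbs-7, against 7.91%. The median GC content was 34.3% in member promoters and in all promoters.

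Among 24 genes listed around the proteasome and CDC-48, ubxn-2 had a region among the 1000 strongest in the pooled list and in both replicates. They were listed as 12 CDC-48 cofactors, 8 genes of proteasome gene control and ubiquitin supply and 4 proteasome-associated genes. The group of 8 was skn-1, ddi-1, sel-1, sel-9, sel-11, uba-1, ubq-1 and ubq-2. Whether each has such a role, sel-9 among them, was not checked. Of the 24, 10 had a region in the pooled list (against 34.2% of all genes) and 0 in the final list (against 0.596%). Replicate 1 had a region at 15 (against 45.1%), sel-9 included, and replicate 2 at 11 (against 44.9%). The gene ubxn-2 encodes a UBX-domain cofactor of CDC-48. Its region (chromosome IV, 2725821 to 2726160) had a pooled signal of 31.7 and rank 178, with rank 767 (signal 11.1) in replicate 1 and rank 276 (signal 20.4) in replicate 2. Its summit lay 172 bp upstream of a TSS in the pooled list, and 228 and 159 bp upstream in replicates 1 and 2. In replicate 2 alone, ufd-2, a ubiquitin ligase gene, had a region of rank 749 (signal 17.0), and uba-1, the gene for the ubiquitin-activating enzyme, one of rank 931 (signal 16.3). Their pooled regions ranked 4540 and 2509, and replicate 1 had no region at either.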

How the data were processed

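Peak lists in narrowPeak layout were used for build ce11. Per the deposited file list, the authors called peaks and background on each replicate and on both pooled, against a control, and derived the final set from these lists by the irreproducible discovery rate. The sources used here name no aligner, caller, version or threshold. The signal of each region and the −log10 of its q value are as deposited. The lists hold no read counts, so depth per sample and its precision are unknown. The replicates come from separate biosamples. Build ce10 lists were not used here.

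Genes and starts of all protein-coding transcripts came from Ensembl release 115 for WBcel235, the assembly of ce11, and sequence from RefSeq's copy of it. All region ends lay within the chromosome lengths. Coordinates count from base 1. Ranks used mean ties. Python 3.11.15, numpy 2.4.6, scipy 1.17.1 and matplotlib 3.10.9 were used. On 20 simulated sets of 200 placed regions, the assignment recovered 100% of genes.

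The members and lists were chosen with earlier results of these data known. The naming rule took members with a final or a 1000-strongest pooled region, then the best-ranked pooled members of each role, those without a region, and cdc-48.1, cdc-48.2 and ufd-1. Other members were named after their values were seen. Alternatives changed the window, the start, the overlap rule, the list length and the replicate.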

Additional observations from a re-analysis of the deposited data

How the results depend on the processing

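Counts of members with a region moved by more than 1.5 times under 4 choices. With the window widened to 2000 bp upstream they were 18 in the pooled list (all genes 46.6%), 26 in replicate 2 (72.2%, all genes 59.5%) and 16 in both replicates (44.4%, all genes 39.6%), so members stood above all genes in these 3 and below them with the main window. In replicate 1 the count, 22, stayed within 1.5 times, but the order changed there too. It was 61.1% (all genes 59.3%), and 44.4% (all genes 45.1%) with the main window. With the window of 500 bp upstream to 200 bp downstream the counts stayed within 1.5 times, but the shares came near those of all genes. They were 19.4% in the pooled list (all genes 20.2%) and 25.0% in replicate 2 (all genes 27.1%). Members stood above all genes in replicate 1, at 30.6% (all genes 26.9%), and in both replicates, at 11.1% (all genes 10.8%). With regions given to the nearest TSS alone the counts were 5 in the pooled list (13.9%, all genes 30.6%) and 3 in both replicates (8.33%, all genes 20.9%). With the 5000 strongest regions they were 4 in the pooled list (all genes 10.6%), 8 in replicate 1 (all genes 10.2%), 4 in replicate 2 (all genes 10.1%) and 3 in both replicates (all genes 2.52%). Without replicate 1 the final-list count was 1. Without replicate 1 or 2, counts ran from 9 to 12 for the pooled list and from 1 to 3 for the final list, and median ranks from 3945 to 5096. In all, 34 of the 44 values computed under alternatives stayed within these limits (1.5 times for counts, the SD between replicates for median ranks), and 10 did not. The SD was 6122, from only 2 replicate medians, so the limit for median ranks was wide. Within it the pooled median went from 7723.5 (all genes 9007) to 12346 (all genes 8886) with the window of 500 bp upstream to 200 bp downstream, which reversed the order. No paired analysis was possible because the series has 1 group. The unknown depth limits what an absent region shows.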
